A study of Mus musculus with 16 samples.

Results

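Group 2 innate lymphoid cells (ILC2s) of the mediastinal lymph node (mLN), the node that drains the lung, were compared with ILC2s of the lung itself 4 days after mice received IL-33 into the nose. The comparison rests on 6 expression arrays, chosen by their labels from the 16 of the series: 3 of day 4 mLN ILC2s and 3 of day 4 lung ILC2s, each labelled as a biological replicate. The labels give C57BL/6J as the strain of the lung samples and name no strain for the mLN samples, and all 12 arrays of day 4 and week 2 come from IL-33-treated mice, so no untreated node stands beside them. No source used here gives the markers by which the cells were isolated, the age of the mice or whether animals were pooled. The same node and lung pair at week 2, also with 3 arrays each, is used below only to ask whether a difference changed with time. Values are log2 signals, on which a difference of 1 is a doubling, for 22180 genes. A gene is said to be called where the adjusted p of the limma fit over all genes was under 0.05.

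ILC2s are lymphocytes without antigen receptors that lie in tissues such as the lung and answer alarm cytokines released by damaged epithelium, IL-33 among them, with the type 2 cytokines IL-5 and IL-13. They hold the transcription factors Gata3, Rora and Id2 in common. After stimulation they divide, and some are found in the draining node, where lymphocytes enter from blood or lymph and leave along gradients of sphingosine phosphate read by the receptor S1pr1.

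Of 19 measured genes that define ILC2s, Cysltr1 was called higher in the node and Cd44, Il13 and Kit lower, and 15 were not called. The mean log2 signal of the 19 was 8.97, 9.07 and 9.21 on lung replicates 1, 2 and 3 and 8.88, 8.78 and 8.92 on mLN replicates 1, 2 and 3. Gata3 read 8.82, 8.98 and 9.55 in the lung and 8.99, 8.85 and 9.03 in the node, Rora 6.39, 6.70 and 6.87 against 6.25, 6.17 and 6.57, and Id2 10.35, 10.50 and 10.30 against 10.71, 10.40 and 10.50, and their array values overlapped. Il7r (11.20, 10.84 and 11.11 in the node), Thy1 and Icos likewise overlapped with the lung arrays and were not called. The lowest correlation between replicates over all genes was 0.977 in the lung and 0.982 in the node.

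Markers of macrophages differed among the lung arrays. The mean of 26 measured macrophage markers was 5.96, 5.91 and 4.24 on lung replicates 1, 2 and 3, against 3.63, 3.41 and 3.69 in the node, so that lung replicates 1 and 2 stood above replicate 3 and all 3 lung arrays stood above the node. Of these 26 markers 8 were called lower in the node and 0 higher, and without lung replicates 1 and 2 limma called 0, with 5 at an unadjusted p under 0.05. Neutrophil markers followed the same arrays, with means of 4.38, 4.26 and 3.20 in the lung and 3.08, 3.04 and 3.10 in the node. Dendritic cell markers averaged 5.51, 5.40 and 4.61 in the lung and 4.55, 4.55 and 4.50 in the node. Those of lung epithelium averaged 4.56, 4.32 and 4.22 in the lung and 4.39, 3.64 and 3.88 in the node. Of 18 measured epithelial markers 2, Cdh1 and Hopx, were called lower and 0 higher, and Scgb1a1 (-3.11) was not called. Markers of B cells (3.84 to 4.23 in the lung and 4.02 to 4.19 in the node), T cells (5.20 to 5.34 and 5.18 to 5.43) and eosinophils (3.04 to 3.29 and 3.16 to 3.29) lay within narrow ranges in both places. In samples of many cells, fewer cells of a type and less RNA per cell cannot be told apart. A fit without lung replicates 1 and 2, which leaves lung replicate 3 alone in its group, assumed to vary as the other groups do, is given below for the gene lists and where it ends a call. With 1 lung array left, a call can end there although the difference is no smaller. Where lung replicate 3 is the highest lung array, a fall in the node is larger there. Where a call is said to hold only without a given array, this speaks of the 6 fits that each left out 1 day 4 array. Here and below, counts at an unadjusted p under 0.05 have no share over all genes beside them. They can therefore not be set against a background.

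In all, 517 of the 22180 genes were called (2.33%), 217 higher in the node (0.978%) and 300 lower (1.35%). The arrays of the 2 groups did not overlap for 515 of the 517, whereas they did not overlap for 18.6% of all genes. The median difference over all genes was 0.01. A log2 difference of at least 1 was reached by 351 called genes, 154 higher and 197 lower. Differences of at least 3 were seen for 3 genes that were higher and 24 that were lower. The number called fell to 254 without mLN replicate 2, to 344 without lung replicate 1 and to 333 without lung replicate 2. With the mean of the macrophage markers on each array as a covariate it was 156. Without lung replicates 1 and 2 together, 96 genes were called higher (0.433%) and 162 lower (0.73%). Of the 517, 83 of those higher and 117 of those lower were also called there.

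**Figure D1:**
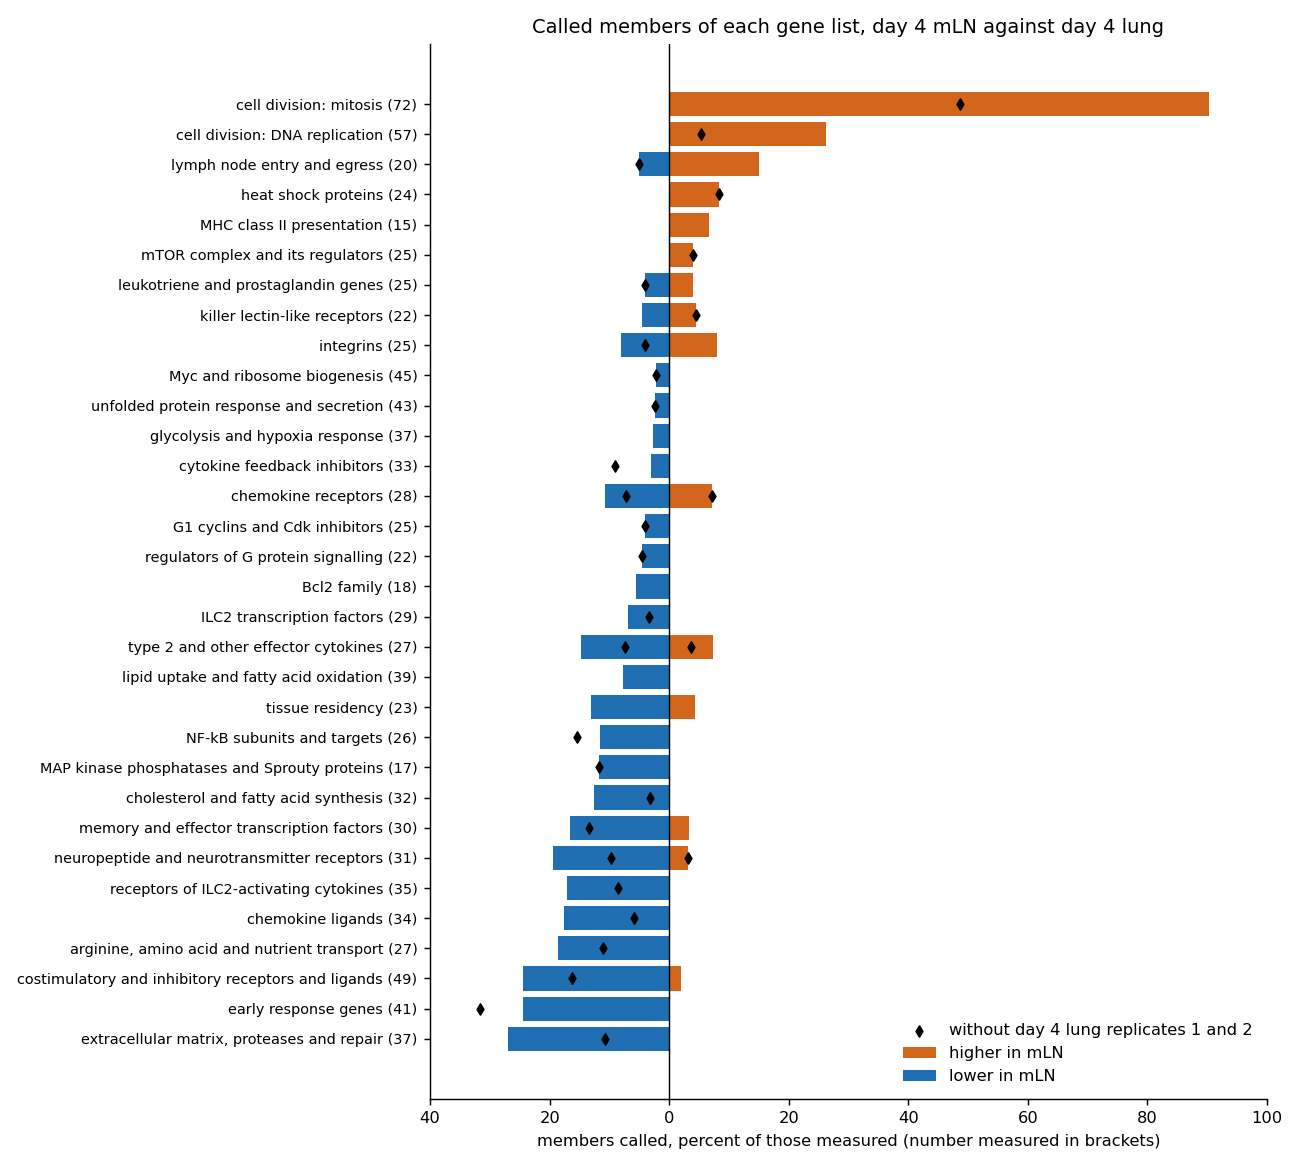
Share of the measured members of each gene list that were called higher (orange, to the right) or lower (blue, to the left) in day 4 mLN ILC2s than in day 4 lung ILC2s, as a percent on the horizontal axis, with black diamonds for the shares without lung replicates 1 and 2. The mitosis list reaches farthest to the right, with 65 of 72 members, while lists with no called member over all arrays are not drawn. The early response list has the diamond farthest to the left. Among the day 4 lung arrays its mean was highest on replicate 3, the lung array left for the diamonds.

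Genes of cell division made up the largest group that was higher in the node. Of 72 measured genes of mitosis (the condensation, capture and parting of chromosomes and the cleavage of the cell), 65 were called higher and 0 lower, and their median difference was 1.46. The list mean was 5.44, 5.20 and 5.27 on lung replicates 1, 2 and 3 and 6.51, 7.16 and 6.58 on mLN replicates 1, 2 and 3, so every node array lay above every lung array, and mLN replicate 2 was the highest. Here and below, the value after a difference is the SE of limma's moderated fit. Cenpf, a protein of the kinetochore, which joins chromosomes to the spindle, read 4.87, 4.74 and 4.65 in the lung and 6.59, 6.83 and 7.01 in the node, 4.16-fold higher (log2 difference 2.06 ± 0.18, adjusted p = 5.64e-06). The spindle protein Hmmr was 4.91-fold higher and the motor Kif18a, which dampens chromosome movement, 4.37-fold higher. Mki67, whose protein Ki-67 coats mitotic chromosomes and marks dividing cells, was already at 8.34, 7.84 and 7.97 in the lung and stood at 9.26, 9.76 and 9.54 in the node (1.47 ± 0.22, adjusted p = 0.000793). Depdc1a (2.45) and Prr11 (2.20), which were in no list and are known as genes of dividing cells, were among the 12 largest rises.

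The genes that copy DNA moved less. Of 57 measured members of the replication list, 15 were called higher and 0 lower, with a median difference of 0.68. Ccna2, the cyclin A gene that acts in S phase and at entry into mitosis, read 6.55, 6.02 and 5.96 in the lung and 8.34, 9.02 and 8.35 in the node. It was 5.25-fold higher there (2.39 ± 0.24, adjusted p = 2.6e-05) and the largest rise of this list. The transcription factor E2f8 (1.53 ± 0.19), the licensing factor Cdc6 (1.16 ± 0.20) and the polymerase subunit Pole (1.19 ± 0.20) were called, Pole not without lung replicates 1 and 2 (adjusted p = 0.0678). Rrm2, the small subunit of the enzyme that makes deoxynucleotides, read 7.69, 7.18 and 6.89 in the lung and 8.67, 9.20 and 8.24 in the node (1.45 ± 0.30, adjusted p = 0.0135), a call that was lost without mLN replicate 2, lung replicate 2, lung replicate 3, or lung replicates 1 and 2 together (adjusted p = 0.0559). Among 25 cyclins and inhibitors of G1, the phase before replication, 1 was called: Cdkn1a, which encodes the inhibitor p21, read 8.52, 8.69 and 9.87 in the lung and 6.12, 6.20 and 7.48 in the node, 5.39-fold lower (adjusted p = 0.000483). On replicate 3 it was the highest in each group.

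When lung replicates 1 and 2 were left out, 35 mitosis genes and 3 replication genes were called higher, and the list medians were 1.52 and 0.66. The mitosis count ranged from 47 to 63 and the replication count from 5 to 13 when any 1 day 4 array was left out. The replication count was 5 without mLN replicate 2, 6 without lung replicate 2 and 10 without lung replicate 3.

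**Figure D2:**
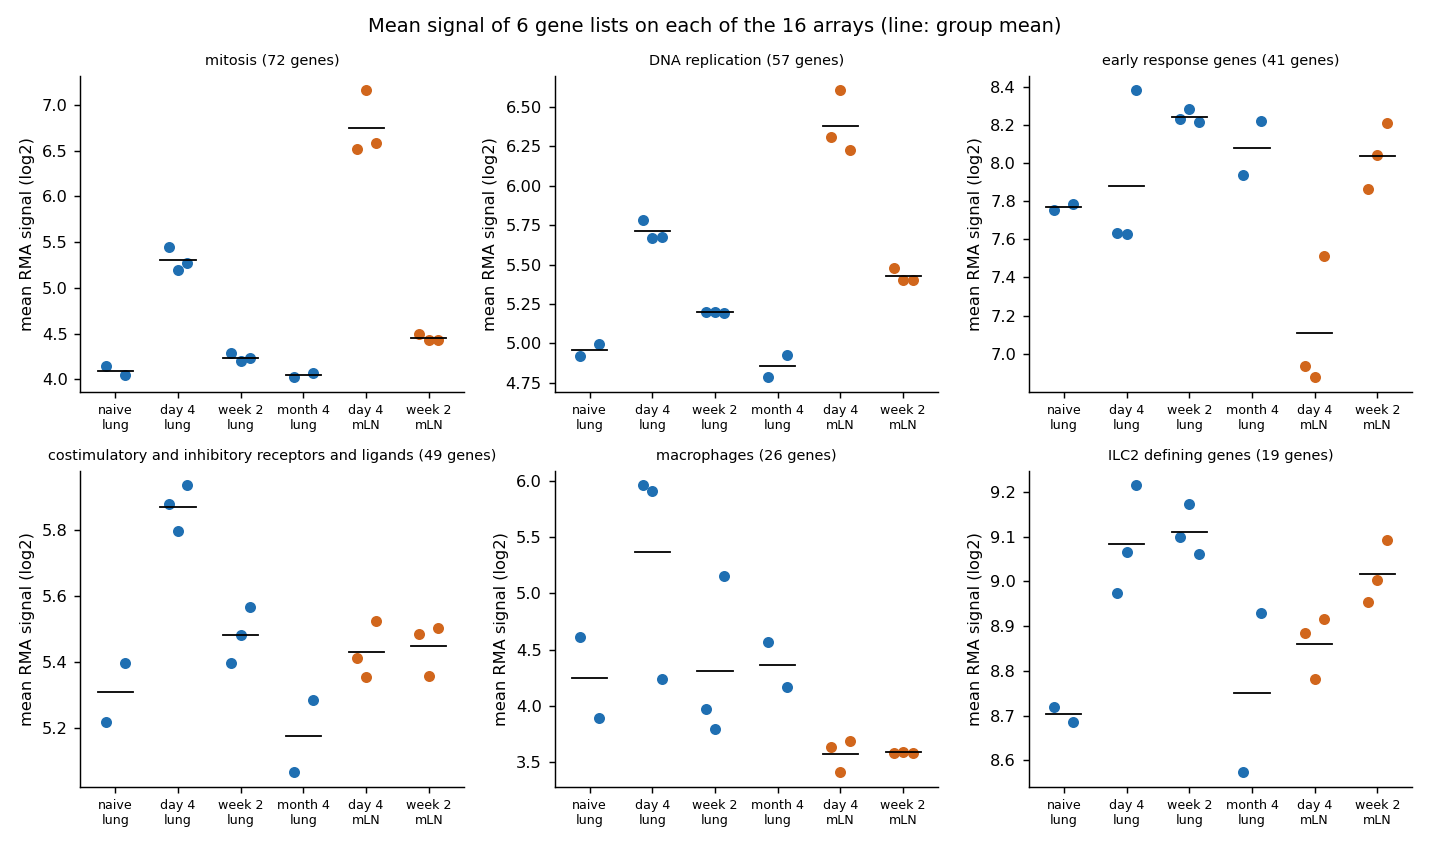
Mean log2 signal of 6 gene lists on each of the 16 arrays, by group (blue, lung; orange, mLN; black lines, group means). The mitosis means of the 3 day 4 mLN arrays lie at 6.51 to 7.16, above the day 4 lung arrays at 5.20 to 5.44 and the week 2 mLN arrays at 4.43 to 4.49, while the macrophage means separate day 4 lung replicates 1 and 2 from replicate 3.

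The promoters of the mitosis genes are shown for the short letters known from genes of this kind, the CCAAT box, bound by the factor NF-Y, and the CHR element TTTGAA, through which the DREAM complex and B-Myb hold such genes to the end of the cell cycle. RefSeq promoters (GRCm38.p6, from 250 bases before to 50 after the start; where a gene has several starts, the first listed) were found for 60 of the 72 measured mitosis genes and for 16990 of all genes tested. On either strand, TTTGAA was in 39 of the 60 (65%) and CCAAT in 40 (66.7%), and both were in 31 (51.7%). In all promoters the shares were 15.8%, 38.5% and 6.42%. Among 175 promoters of genes called higher in the node, 33.7% held both. Among 241 of genes called lower 3.32% did, and for the 108 of genes called higher outside the mitosis and replication lists the share was 23.1%. The 47 promoters of the replication list held TTTGAA in 14.9%. The 130 bases before the start are printed for 4 called mitosis genes, 5′ to 3′ on the gene's strand. They had the largest differences among the 10 that held both sets of letters in that window. Genes of 1 chromosome were left out of this choice. CCAAT or its reverse complement ATTGG and TTTGAA or its reverse complement TTCAAA are in capitals. A match is a description of the letters and not of a bound site.
Cdc20 (chr4:118437344-118437473, minus strand): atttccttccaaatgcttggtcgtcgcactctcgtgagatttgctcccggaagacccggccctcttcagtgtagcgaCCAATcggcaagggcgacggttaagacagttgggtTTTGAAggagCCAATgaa
Ube2c (chr2:164769799-164769928, plus strand): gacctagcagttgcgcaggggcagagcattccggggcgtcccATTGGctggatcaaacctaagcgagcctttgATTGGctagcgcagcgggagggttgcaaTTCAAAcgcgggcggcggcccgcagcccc
Kif11 (chr19:37376252-37376381, plus strand): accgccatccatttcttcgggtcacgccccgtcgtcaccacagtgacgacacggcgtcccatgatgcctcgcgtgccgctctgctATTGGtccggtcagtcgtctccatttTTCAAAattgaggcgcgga
Top2a (chr11:99024190-99024319, minus strand): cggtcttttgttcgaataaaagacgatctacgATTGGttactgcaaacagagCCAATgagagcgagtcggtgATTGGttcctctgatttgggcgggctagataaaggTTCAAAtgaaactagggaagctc
Cdc20 and Ube2c serve the complex that marks cyclins for destruction, Kif11 drives the spindle poles apart and Top2a untangles DNA. In the node they were higher by 2.02, 1.78, 1.77 and 1.64 on the log2 scale, and only Ube2c of these 4 was not called without lung replicates 1 and 2 (adjusted p = 0.158). In Kif11 the only CCAAT letters of the window began 45 bases before the start, and TTTGAA began at 19.

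The largest rises of all were in a pair of heat shock genes. Hspa1b, which encodes an inducible Hsp70 chaperone that binds unfolded proteins, read 6.27, 5.64 and 5.50 in the lung and 10.19, 10.89 and 11.25 in the node, 31.4-fold higher (4.97 ± 0.33, adjusted p = 3.05e-07). Hspa1a read 5.68, 4.04 and 5.10 and 9.08, 9.83 and 9.62 (4.57 ± 0.49, adjusted p = 5.11e-05). The lung and node arrays were far apart for both genes. Their products are nearly identical, so probes may not tell the 2 genes apart and their single levels are uncertain. These were the only 2 called among 24 measured heat shock genes, whose median difference was 0.12, and both were also called at week 2 (3.72 and 3.81). Their promoters share 296 of 300 bases. In the 130 bases before the start they differ at 1 base, and each holds 1 match to the heat shock letters GAANNTTC, which begins 104 bases before the start and is in capitals. These letters were in 9 of 21 promoters of the list (42.9%), against 7.1% of all promoters.
Hspa1b (chr17:34959239-34959368, minus strand): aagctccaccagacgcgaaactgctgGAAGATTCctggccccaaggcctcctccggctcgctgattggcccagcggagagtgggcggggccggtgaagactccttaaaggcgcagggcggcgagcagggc
Hspa1a (chr17:34972157-34972286, minus strand): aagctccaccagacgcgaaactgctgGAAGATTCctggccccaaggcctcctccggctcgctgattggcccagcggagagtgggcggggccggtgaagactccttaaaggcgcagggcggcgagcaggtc

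Deptor, which encodes an inhibitory partner of the growth kinase mTOR, was the third largest rise. It read 4.79, 5.40 and 5.37 in the lung and 8.54, 8.39 and 8.58 in the node, 9.97-fold higher (3.32 ± 0.29, adjusted p = 5.72e-06). It was called at week 2 as well (4.44). It was the only 1 of 25 measured genes of the mTOR list that was called. Ccr3, the receptor for eotaxins best known from eosinophils, read 3.55, 3.87 and 3.38 in the lung and 6.01, 6.35 and 5.71 in the node (2.42 ± 0.36, adjusted p = 0.000845). The mean of 9 eosinophil markers, Ccr3 among them, was 3.04 to 3.29 in the lung and 3.16 to 3.29 in the node. Of the 9, 4 had a positive and 5 a negative difference. Kmo, an enzyme of tryptophan breakdown, read 5.02, 4.72 and 5.02 and 7.67, 7.27 and 7.002 (2.39 ± 0.30), and Gimap7, a GTPase of lymphocytes, 4.30, 5.09 and 4.43 and 7.07, 6.87 and 6.65 (2.26 ± 0.34). Tmem273 was 4.60-fold higher, and lost its call without lung replicates 1 and 2 (adjusted p = 0.117).

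**Figure D3:**
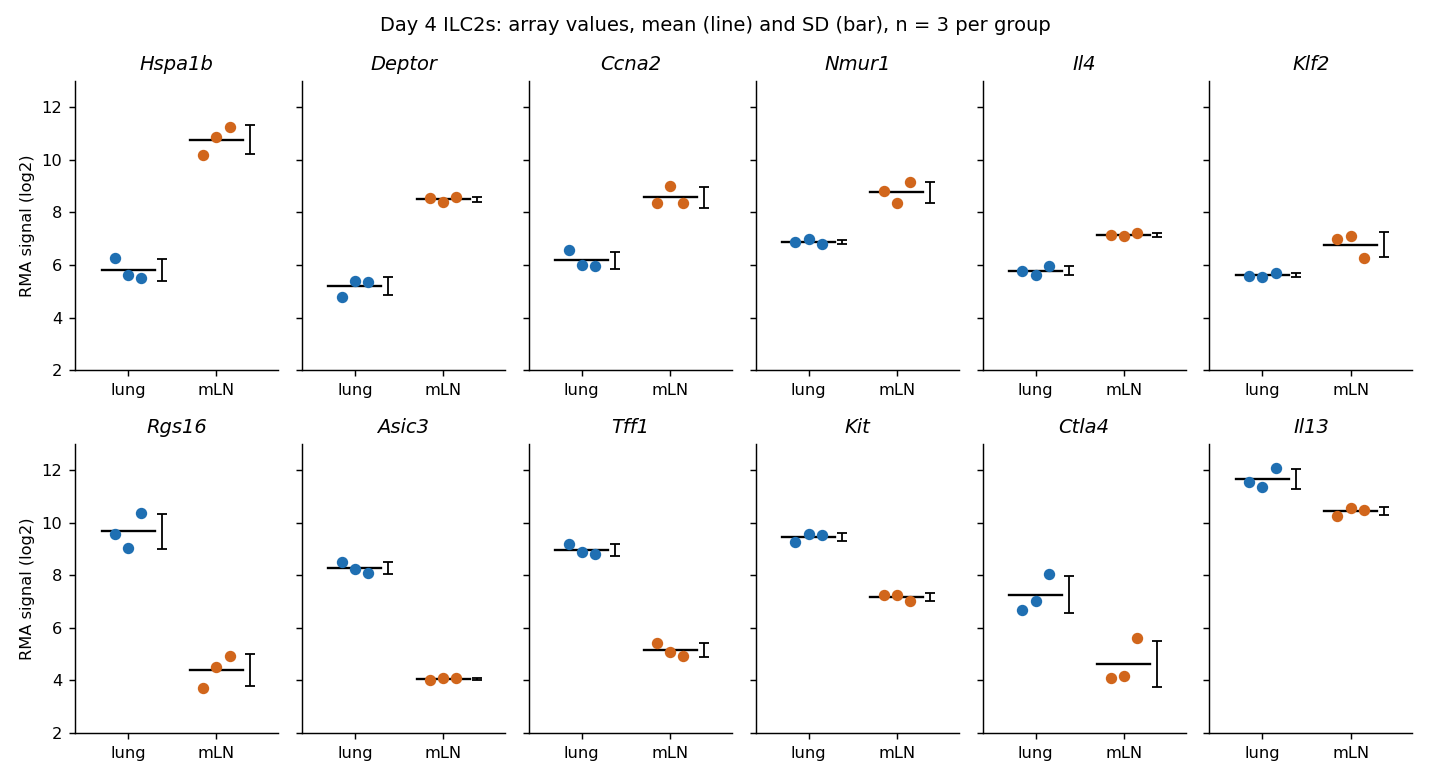
Log2 signal of 12 genes on the 3 day 4 lung arrays (blue) and the 3 day 4 mLN arrays (orange), with group means as lines and the SD as bars (n = 3). In each panel the 2 groups do not overlap, and Hspa1b rises from a mean of 5.80 in the lung to 10.77 in the node while Rgs16 drops from 9.66 to 4.39.

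Many of the largest falls moved with the macrophage markers. Chil3, which encodes the chitinase-like protein Ym1 of alveolar macrophages, read 11.39, 11.43 and 9.19 in the lung and 4.32, 3.72 and 4.44 in the node (-6.51 ± 1.03, adjusted p = 0.00152). Lung replicate 3 was below the others but still above the node, and the call was lost without lung replicates 1 and 2 (adjusted p = 0.159). Rnase2a, of the eosinophil-associated ribonucleases, read 10.41, 10.01 and 5.68 in the lung and 2.89, 2.52 and 2.74 in the node. It differed by -5.98 ± 0.83 over all arrays, by -2.96 without lung replicates 1 and 2 (adjusted p = 0.0157) and by -7.49 without lung replicate 3. Ccl17, a ligand of Ccr4, read 10.55, 10.24 and 4.41 in the lung and 4.30, 3.90 and 3.92 in the node, so its lung replicate 3 was near the node, and without lung replicates 1 and 2 the difference was -0.37. Its call was also lost without any 1 of the other arrays except lung replicate 3 (highest adjusted p 0.188).

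The same arrays set apart Ccl6 (-4.69, -2.37 without lung replicates 1 and 2), Atp6v0d2, a subunit of the proton pump of lysosomes and osteoclasts (-4.45 and -2.58), the fatty acid carrier Fabp4 (-4.12 and -2.52), the metalloelastase Mmp12 (-3.20 and -0.61), and the scavenger receptor Cd36 (-3.25 and -0.91). None of these 5 was called without those replicates, and Mmp12 and Cd36 also lost their calls without mLN replicate 2, mLN replicate 3, lung replicate 1 or lung replicate 2, Mmp12 without mLN replicate 1 too. Retnla, which encodes the resistin-like protein Fizz1, read 10.26, 9.02 and 7.29 in the lung and 6.97, 3.74 and 3.71 in the node, with mLN replicate 1 above the other node arrays (-4.05 ± 0.87, adjusted p = 0.0165). Its call was lost without mLN replicate 2, mLN replicate 3, lung replicate 1 or lung replicate 2 (highest adjusted p 0.11), and without both of these lung arrays (adjusted p = 0.568). The part of macrophage RNA in these differences was not tested. Of the 300 genes called lower, 43 had a lung replicate 3 value nearer to the node mean than to the mean of lung replicates 1 and 2, against 2 of the 217 called higher.

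Other large falls were also called against lung replicate 3 alone. Tff1, a trefoil peptide that protects mucosa, read 9.20, 8.88 and 8.79 in the lung and 5.43, 5.06 and 4.92 in the node, 14.1-fold lower (-3.82 ± 0.25, adjusted p = 3.05e-07). Cd63, a tetraspanin of late endosomes and secretory granules, read 8.47, 7.90 and 7.58 and 3.95, 4.14 and 4.25 (-3.87 ± 0.31, adjusted p = 2.44e-06). Against lung replicate 3 alone the differences were -3.65 for Tff1 and -3.47 for Cd63, and both were called. Olr1, a receptor for oxidised lipoprotein, differed by -3.22 and by -2.71 there, and Bex1 by -2.83 and -2.75. Olr1 read 6.62, 6.60 and 5.85 in the day 4 lung, lowest on replicate 3. In the week 2 lung, where replicate 3 had the highest macrophage marker mean, Olr1 read 3.98, 3.37 and 5.25. Cd63 read 5.43, 5.61 and 6.43 on those arrays. The part of macrophage RNA in these 2 genes was not tested. Ccl24, an eotaxin that binds Ccr3, read 9.22, 8.59 and 6.58 in the lung and 4.18, 3.91 and 3.71 in the node (-4.20 ± 0.46). It was called without lung replicates 1 and 2 (-2.65, adjusted p = 0.00191) although replicate 3 was lower than they were.

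**Figure D4:**
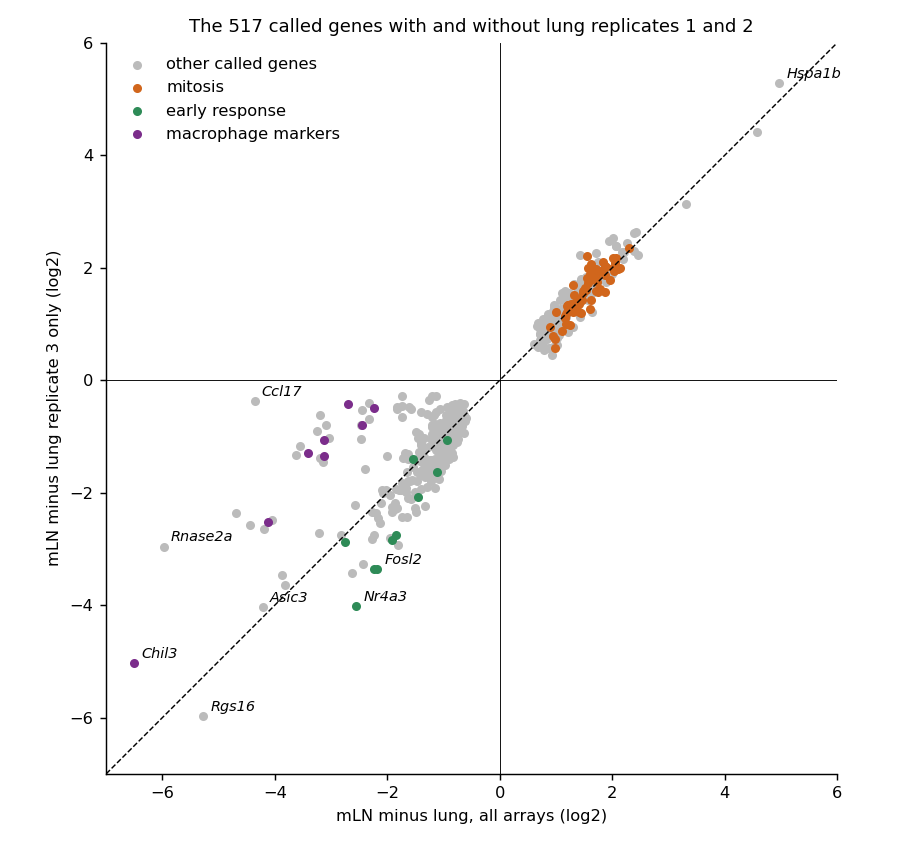
Log2 difference (mLN minus lung) of each of the 517 called genes over all arrays (horizontal) and against lung replicate 3 only (vertical), with the dashed line where both are equal. The 8 called macrophage markers (purple) lie above the line, nearer to 0 without lung replicates 1 and 2, while mitosis genes (orange) lie along it and most early response genes (green) below it, with Nr4a3 at -2.55 and -4.03.

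Among genes that cells switch on within minutes of a stimulus, every call was toward lower levels in the node. Of 41 measured early response genes, 10 were called lower and 0 higher (median difference -0.56), and 36 had a negative difference. Without lung replicates 1 and 2 the median was -1.06. That fit keeps lung replicate 3, the highest lung array for 33 of the 41, so a larger difference there was built in. Leaving out 1 array gave counts of 5 without mLN replicate 1, 5 without mLN replicate 2, 6 without lung replicate 3 and up to 12 otherwise. Egr2, a zinc finger factor downstream of calcium and MAP kinase signals, read 8.17, 7.49 and 8.01 in the lung and 4.78, 5.29 and 5.34 in the node, 6.76-fold lower (-2.76 ± 0.21, adjusted p = 1.49e-06). Fosl2, a partner of Jun in the factor AP-1, read 7.05, 7.44 and 9.01 and 5.26, 5.64 and 6.04 (-2.19 ± 0.35, adjusted p = 0.00182), and Gadd45b, a stress-response gene, 9.32, 9.39 and 10.72 and 7.61, 7.54 and 8.49 (-1.93 ± 0.31). The orphan nuclear receptor Nr4a3 read 8.15, 8.19 and 10.38 in the lung and 5.66, 5.47 and 7.92 in the node (-2.55 ± 0.55, adjusted p = 0.0174).

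Within each group replicate 3 was the highest for many of these genes: in the lung for 33 of the 41 and in the node for 35. For Nr4a3 the node's replicate 3 came close to lung replicates 1 and 2. Its call was lost without mLN replicate 1, mLN replicate 2 or lung replicate 3, and that of Nr4a1 (-2.25 ± 0.45, adjusted p = 0.0106) without mLN replicate 1 or mLN replicate 2. Fos (-0.47), Jun (0.35) and Myc (0.62), also picked with their values known, were not called. The list mean was 7.63, 7.63 and 8.38 on lung replicates 1, 2 and 3 and 6.93, 6.88 and 7.51 on mLN replicates 1, 2 and 3, so mLN replicate 3 was close to the lower lung arrays.

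Rgs16, which speeds the shutdown of G protein signals, read 9.58, 9.04 and 10.37 in the lung and 3.73, 4.52 and 4.93 in the node. It was 38.6-fold lower (-5.27 ± 0.42, adjusted p = 2.44e-06), the only call among 22 measured members of its family, and -5.98 without lung replicates 1 and 2. Of 17 MAP kinase phosphatases and Sprouty proteins 2 were called lower, Dusp4 (-1.82 ± 0.39) and Spred1 (-0.86 ± 0.20). The call of Dusp4 was lost without mLN replicate 1, mLN replicate 2 or lung replicate 3. That of Spred1 was lost without any 1 array but mLN replicate 3, and without lung replicates 1 and 2 together. In this last fit Dusp4 differed by -2.93. Dusp4 read 5.93, 5.80 and 7.53 on lung replicates 1, 2 and 3, so the array left was its highest. Of 26 genes of the NF-kB pathway 3 were called lower: Cd83 (-1.40 ± 0.21), the kinase Map3k8 (-1.16 ± 0.26) and the survival gene Bcl2a1a (-1.18 ± 0.25). The call of Map3k8 was lost without mLN replicate 1, mLN replicate 2 or lung replicate 3, and that of Bcl2a1a without mLN replicate 2, mLN replicate 3, lung replicate 1 or lung replicate 2. When both of these lung arrays were left out, the median of the 26 was -0.54, against -0.39 over all arrays, and Bcl2a1a lost its call. The list mean was 6.98, 6.97 and 7.34 on lung replicates 1, 2 and 3, so the array left was the highest. Among 33 feedback inhibitors of cytokine signalling, Ptpn22 was called (-0.81 ± 0.18) and no other, and this call held only without mLN replicate 3 or lung replicate 1. Leaving out lung replicates 1 and 2 together, the difference of Ptpn22 was -1.07. It read 9.72, 10.20 and 10.36 on lung replicates 1, 2 and 3, so the array left was its highest.

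Receptors and ligands through which lymphocytes stimulate or restrain each other were mostly lower where they were called. Of 49 measured, 12 were called lower and 1 higher (median difference -0.34), and 8 were lower without lung replicates 1 and 2. Ctla4, which competes with Cd28 for its ligands, read 6.69, 7.02 and 8.05 in the lung and 4.09, 4.16 and 5.63 in the node, 6.18-fold lower (-2.63 ± 0.35, adjusted p = 0.00033), with replicate 3 the highest in both groups. Tigit, an inhibitory receptor for nectin-like ligands, read 7.01, 6.70 and 7.66 and 5.04, 4.60 and 4.89 (-2.28 ± 0.24, adjusted p = 4.5e-05). Tnfsf8, the ligand of Cd30, read 8.05, 7.72 and 8.31 and 5.95, 5.84 and 5.80 (-2.16 ± 0.21, adjusted p = 2.36e-05).

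The checkpoint receptor Pdcd1 (PD-1) read 7.36, 7.34 and 7.98 in the lung and 5.47, 5.86 and 5.59 in the node (-1.92 ± 0.28, adjusted p = 0.000847). Lag3, which binds MHC class II, read 6.18, 5.54 and 6.36 and 3.81, 4.39 and 4.31 (-1.86 ± 0.23, adjusted p = 0.000172). In all 5 genes the node and lung arrays stood apart, and each was called in every fit that left out 1 day 4 array and without lung replicates 1 and 2. Tnfsf11, the ligand of RANK, was called lower as well (-1.07 ± 0.23), a call lost without mLN replicate 1, mLN replicate 2, lung replicate 1 or lung replicate 3. Cd160, named after its value was seen, was the 1 member called higher (1.72 ± 0.28), and not without lung replicates 1 and 2 (adjusted p = 0.0603). Tnfsf4 (OX40 ligand), through which ILC2s help T cells, read 7.49, 6.96 and 7.74 and 7.25, 7.49 and 7.39 and was not called, nor was Tnfsf18 (-1.08 ± 0.32, adjusted p = 0.109).

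The type 2 cytokines did not move as a block. Il13 read 11.55, 11.34 and 12.08 in the lung and 10.26, 10.54 and 10.49 in the node, 2.35-fold lower there (-1.23 ± 0.22, adjusted p = 0.00379). Il4 went the other way, from 5.78, 5.61 and 5.95 to 7.15, 7.09 and 7.23 (1.38 ± 0.18, adjusted p = 0.000219), and all 3 node arrays lay above all 3 lung arrays. Il5 read 8.62, 8.50 and 8.83 and 8.27, 8.06 and 8.07 and was not called (-0.52 ± 0.19, adjusted p = 0.282). Of 27 measured genes of the effector cytokine list 2 were called higher, Il4 and Ebi3 (0.86 ± 0.20). Another 4 were lower: Il1a, Il13, Csf1 and the enkephalin precursor Penk, which the list also holds. Ebi3, a shared subunit of IL-27 and IL-35, lost its call without mLN replicate 1, mLN replicate 2, lung replicate 1 or lung replicate 3. Il1a (-1.41 ± 0.33) read 4.56, 3.85 and 2.95 in the lung and lost its call without lung replicate 1, lung replicate 2, mLN replicate 2 or mLN replicate 3. With lung replicates 1 and 2 left out, 1 cytokine was called higher and 2 lower, and Ebi3, Il1a and Csf1 were not called (adjusted p = 0.0551, 0.802 and 0.0744). Il6 (0.10 ± 0.31), Csf2 (-0.30 ± 0.19), Il2 (-0.86 ± 0.24) and Tnf (-1.02 ± 0.32) were not called, and neither was Il9, at 4.19, 3.29 and 2.65 in the lung and 2.96, 2.78 and 2.53 in the node.

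Among 35 measured receptors for cytokines that act on ILC2s, 6 were called lower and 0 higher. Kit, the receptor of stem cell factor, read 9.27, 9.57 and 9.52 in the lung and 7.26, 7.25 and 7.01 in the node, 4.85-fold lower (-2.28 ± 0.20, adjusted p = 5.64e-06), and it differed by -2.32 at week 2. Il1r2, a decoy receptor that binds IL-1 without signalling, read 9.22, 8.85 and 9.29 and 7.32, 6.80 and 6.65 (-2.20 ± 0.32, adjusted p = 0.000659). Il2rb, the shared receptor chain for IL-2 and IL-15, differed by -1.13 ± 0.24, Il21r by -1.03 ± 0.25 and Il6ra by -0.94 ± 0.21, and each of these 3 calls was lost in 4 of the 6 fits without 1 day 4 array. They held only without lung replicate 1 or 2 for Il2rb, mLN replicate 2 or lung replicate 2 for Il21r, and mLN replicate 3 or lung replicate 1 for Il6ra. With both of lung replicates 1 and 2 left out, the differences were -1.61 for Il2rb, -1.44 for Il21r and -0.92 for Il6ra. Il21r and Il6ra lost their calls there. Il2rb read 9.11, 9.07 and 9.81 on lung replicates 1, 2 and 3, so the array left was its highest. The count of the list was 3 without mLN replicate 1 or lung replicate 3. The receptor chains Il17rb (0.57 ± 0.16, adjusted p = 0.074), Il2ra (0.48 ± 0.18) and Il9r (-0.31 ± 0.24) were not called. Klrg1, an inhibitory receptor of mature ILC2s, read 9.04, 9.30 and 9.08 and 9.57, 9.74 and 9.64, groups that did not overlap, and was not called (adjusted p = 0.356).

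Genes of movement and anchoring changed in both directions. Klf2, a transcription factor that drives S1pr1 and keeps lymphocytes circulating, read 5.60, 5.56 and 5.69 in the lung and 6.98, 7.11 and 6.25 in the node (1.16 ± 0.21, adjusted p = 0.00493), and S1pr1 itself 6.41, 6.59 and 6.64 and 7.54, 7.65 and 7.33 (0.96 ± 0.20, adjusted p = 0.0125). The call of S1pr1 was lost without mLN replicate 1, mLN replicate 2 or lung replicate 1, and neither gene was called without lung replicates 1 and 2 (adjusted p = 0.171 and 0.289). Cxcr4, which retains cells near its ligand Cxcl12, was lower in the node, at 7.96, 7.998 and 7.43 against 8.59, 8.58 and 9.54 (-1.11 ± 0.23, adjusted p = 0.0134). Its call was lost without mLN replicate 3. Ccr7, the receptor for entry into nodes, read 5.85, 5.72 and 5.84 and 5.22, 6.06 and 5.58 and was not called. These genes come from a list of 20 for entry into and exit from nodes, of which 3 were called higher (Itga4 is the other) and 1 lower, and 0 higher and 1 lower without lung replicates 1 and 2. The number higher was 1 without mLN replicate 1 or mLN replicate 2.

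Of 28 chemokine receptors 2 were called higher and 3 lower. Ccr2 read 9.36, 9.14 and 9.06 in the lung and 10.04, 10.005 and 10.12 in the node (0.87 ± 0.15, adjusted p = 0.00356). Ccr8, a receptor of Th2 cells and tissue lymphocytes, went from 10.10, 10.19 and 10.96 to 8.61, 8.79 and 9.14 (-1.57 ± 0.29, adjusted p = 0.00532). Cx3cr1 was 2.61-fold lower, a call lost without any 1 of the 6 arrays and without lung replicates 1 and 2 together (adjusted p = 0.2), while Ccr4 (-0.09 ± 0.16) and Cxcr6 (-0.32 ± 0.14) were not called. Of 34 chemokine ligands 6 were called lower, Ccl6, Ccl17, Ccl24, Ccl9, Ccl3 and Cxcl2, and 2 were lower without lung replicates 1 and 2. Of the named 6, only Ccl24 was called there. The count was 3 without mLN replicate 2, and 4 without any other 1 array but lung replicate 3.

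Itgae, the integrin chain CD103 that binds E-cadherin on epithelium, read 9.30, 9.18 and 9.53 in the lung and 7.36, 7.42 and 7.94 in the node, 3.40-fold lower (-1.76 ± 0.30, adjusted p = 0.00282), and fell just short of a call without lung replicates 1 and 2 (adjusted p = 0.0521). E-cadherin itself (Cdh1, -1.30 ± 0.27) and Nt5e, the ectoenzyme CD73 (-0.97 ± 0.20), were the other members called lower among 23 genes of tissue residency. Cdh1 is also 1 of the lung epithelium markers given above. The ATP receptor P2rx7 was called higher (0.72 ± 0.15). The call of Cdh1 was lost without mLN replicate 2, lung replicate 1 or lung replicate 2, that of Nt5e without mLN replicate 2 or lung replicate 3, and that of P2rx7 without mLN replicate 2, mLN replicate 3 or lung replicate 3. Cd69, which holds S1pr1 inside the cell, read 9.21, 9.48 and 10.33 and 8.94, 8.67 and 9.85 and was not called. Itga2, the collagen-binding chain CD49b, rose from 5.48, 5.51 and 5.55 to 7.11, 6.98 and 7.26 (1.60 ± 0.25, adjusted p = 0.00124), and Itga4 differed by 0.80 ± 0.16, a call lost without mLN replicate 1, mLN replicate 2 or lung replicate 3. Neither integrin was called without lung replicates 1 and 2, where Itga2 differed by 1.56 and Itga4 by 1.003. There, no residency gene kept its call. The differences were -1.95 for Itgae, -1.22 for Nt5e and 0.90 for P2rx7, larger in size than over all arrays. That of Cdh1 was smaller, at -0.60.

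Several genes of neuropeptides, their receptors and ion channels differed strongly. Asic3, an ion channel opened by protons, read 8.51, 8.22 and 8.09 in the lung and 4.01, 4.08 and 4.07 in the node, 18.6-fold lower (-4.22 ± 0.21, adjusted p = 1.4e-08), the smallest p of the 517. Nmur1, the receptor for the neuropeptide neuromedin U that activates ILC2s, was higher in the node, at 8.80, 8.34 and 9.16 against 6.88, 6.97 and 6.82 (1.88 ± 0.21, adjusted p = 7.71e-05). Penk, the precursor of enkephalins, read 5.92, 5.34 and 6.30 and 3.73, 4.23 and 4.10 (-1.83 ± 0.28, adjusted p = 0.00117). Ramp1 (-0.79 ± 0.19) and Ramp3 (-1.07 ± 0.25), partners of the receptor Calcrl for the peptides CGRP and adrenomedullin, were called lower. The call of Ramp1 held only without lung replicate 3 and that of Ramp3 only without lung replicate 1. With lung replicates 1 and 2 both left out, the difference was -1.75 for Ramp3 and -0.43 for Ramp1, and Ramp1 lost its call. Ramp3 read 5.80, 6.22 and 7.03 on lung replicates 1, 2 and 3, so the array left was its highest. In all, 1 of 31 measured members of this list was called higher and 6 lower, and 3 were lower without lung replicates 1 and 2. The number lower was 4 without mLN replicate 1, 3 without lung replicate 1 or lung replicate 3, and 2 without mLN replicate 2, mLN replicate 3 or lung replicate 2. The VIP receptor Vipr2 had an adjusted p of 0.0521 (-0.85 ± 0.22).

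Among genes of metabolism, Tph1, the enzyme that starts serotonin synthesis from tryptophan, read 6.40, 6.88 and 6.12 in the lung and 4.06, 3.61 and 4.02 in the node, 5.94-fold lower (-2.57 ± 0.22, adjusted p = 5.64e-06). It belongs to a list of 27 genes of amino acid use and nutrient transport, of which 5 were called lower and 0 higher, and 3 lower without lung replicates 1 and 2. The count was 2 without mLN replicate 1, and 3 without mLN replicate 2 or lung replicate 1. Mt2, a metal-binding protein, read 7.12, 7.16 and 6.15 and 4.68, 4.79 and 4.96 (-2.0 ± 0.30), and the arginine transporter Slc7a2 5.59, 5.15 and 3.66 and 3.26, 3.39 and 2.91 (-1.61 ± 0.36), with lung replicate 3 the lowest lung array for both. The call of Slc7a2 held only without lung replicate 3, and neither was called without lung replicates 1 and 2 (adjusted p = 0.134 for Mt2 and 0.853 for Slc7a2). The leucine transporter Slc7a5 differed by -0.95 ± 0.19, a call lost without mLN replicate 1 or lung replicate 3. Arg1, the arginine-splitting enzyme of ILC2s, read 10.01, 9.84 and 10.41 and 9.60, 9.45 and 9.54 and was not called. Of 32 genes of cholesterol and fatty acid synthesis 4 were called lower, Cyp51 (-1.24 ± 0.18), Hmgcs1 (-0.97 ± 0.21), Insig1 (-0.96 ± 0.20) and Msmo1 (-0.94 ± 0.22), and 1, Cyp51, was without lung replicates 1 and 2. The count was 1 without mLN replicate 1 or lung replicate 1 and 2 without mLN replicate 3. Hmgcs1 lost its call without mLN replicate 1, mLN replicate 3 or lung replicate 1, Insig1 held it only without mLN replicate 3 or lung replicate 2, and Msmo1 only without mLN replicate 2. Cysltr1, a leukotriene receptor of ILC2s, was higher in the node (0.88 ± 0.17, adjusted p = 0.00824), and not called without lung replicates 1 and 2 (adjusted p = 0.0652).

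Of 37 genes of extracellular matrix and repair 10 were called lower and 0 higher (median difference -0.45). The count was 4 without lung replicates 1 and 2. Among the fits that left out 1 array it was 6 without each of mLN replicates 1, 2 and 3 and lung replicates 1 and 2, and 12 without lung replicate 3. Besides Retnla, Tff1 and Mmp12 they included the protease Ctsl (-1.50 ± 0.29), the protease inhibitor Timp1 (-1.73 ± 0.40) and Cd44, a receptor for hyaluronan (-1.11 ± 0.18). Timp1 read 5.35, 4.69 and 2.85 in the lung and 2.64, 2.57 and 2.48 in the node, and its call held only without lung replicate 3. That of Ctsl was lost without mLN replicate 1, mLN replicate 2 or lung replicate 1. Neither Ctsl nor Timp1 was called without lung replicates 1 and 2 (adjusted p = 0.464 and 0.915). Cd44 read 9.24, 9.44 and 9.77 and 8.25, 8.38 and 8.50, and of the 3 it alone was called without lung replicates 1 and 2 (adjusted p = 0.0119).

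Of 29 measured ILC2 factors, Irf4 (-0.97 ± 0.25, adjusted p = 0.0481) and Ikzf3 (-1.01 ± 0.23) were called lower. The call of Irf4 held only without lung replicate 2 and that of Ikzf3 only without lung replicate 1. With both of these lung arrays left out, the difference was -1.51 for Irf4 and -1.34 for Ikzf3, and Ikzf3 lost its call. Irf4 read 7.72, 7.57 and 8.45 on lung replicates 1, 2 and 3, so the array left was its highest. Among 30 factors of memory and effector lymphocytes, Klf2 was called higher and 5 lower. Bcl6, a repressor that opposes effector fates, read 7.99, 7.57 and 7.64 in the lung and 6.43, 6.25 and 6.69 in the node (-1.28 ± 0.17, adjusted p = 0.000304), and Bach2, a repressor of effector genes in lymphocytes, 5.72, 5.89 and 6.12 and 3.86, 4.51 and 4.67 (-1.56 ± 0.24, adjusted p = 0.00124). Hlf (-1.01 ± 0.19), which lost its call without mLN replicate 2, and Hopx (-0.94 ± 0.17) were the others besides Egr2. Hopx is also 1 of the lung epithelium markers given above. Hlf and Hopx were not called without lung replicates 1 and 2 (adjusted p = 0.0517 and 0.0608), where 4 of the list were lower and 0 higher. Bcl11b (0.07 ± 0.17) and Pparg (0.07 ± 0.23) were not called.

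No member was called in either direction among 63 interferon-stimulated genes (median difference -0.23) and 58 genes of oxidative phosphorylation (0.06) by limma. At an unadjusted p under 0.05, 20 of the interferon list and 1 of the phosphorylation list passed, with no share over all genes to set beside these counts. Of 15 genes of MHC class II presentation, H2-Oa was called higher (0.83 ± 0.20), a call lost without any 1 of the 6 arrays and without lung replicates 1 and 2 together (adjusted p = 0.218). Among 16 T cell markers Trat1, an adaptor of the T cell receptor, was called higher (1.23 ± 0.28), a call that held only without mLN replicate 1 or mLN replicate 3, and not without lung replicates 1 and 2 (adjusted p = 0.11). Among 14 B cell markers Ighm, the heavy chain of IgM, was called higher (1.10 ± 0.19). Ighm read 7.59, 7.55 and 6.90 in the lung and 8.60, 8.16 and 8.57 in the node, but its 6 other probe sets differed by between -0.16 and 0.28. Of 18 measured immunoglobulin gene segments 0 were called by limma, and 2 had an unadjusted p under 0.05.

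The node and lung were also compared at week 2, on other arrays. There 173 genes were called (0.78%). The macrophage marker means were 3.97, 3.80 and 5.16 on week 2 lung replicates 1, 2 and 3 and 3.59, 3.60 and 3.58 in the week 2 node, so week 2 lung replicate 3 stood above the others. Of these, 80 were called at day 4 too, all in the same direction (26 higher and 54 lower in the node), which is 15.5% of the day 4 calls and 46.2% of the week 2 calls. Hspa1b, Deptor, Ccr3, Kmo, Il4, Kit, Rgs16 and Tph1 were among the 80. For Il4 the difference was 2.54 at week 2 against 1.38 at day 4, and for Rgs16 -3.21 against -5.27, and these changes with time were not called (adjusted p = 0.0781 and 0.269).

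The test of the change itself called 40 genes (0.18%), 25 with a higher and 15 with a lower node minus lung difference at day 4 than at week 2. Of these 40, 18 were mitosis genes and 1, Ccna2, was in the replication list. The mitosis list had a median difference of 0.18 at week 2 and 1 called member, and its week 2 means were 4.20 to 4.28 in the lung and 4.43 to 4.49 in the node. Ccna2 read 4.18, 4.37 and 4.02 in the week 2 lung and 4.41, 4.18 and 3.72 in the week 2 node, and its node minus lung difference was higher by 2.48 at day 4 (adjusted p = 0.00423). Among the mitosis genes the difference was higher at day 4 for Nuf2 (2.27), Kif23 (2.21), Kif14 (2.18), Hmmr (2.02) and Cenpf (2.003), which serve the spindle, the kinetochore or cytokinesis.

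In the other direction, Ccl24 changed by -3.77 (adjusted p = 0.0217), Tff1 by -3.65 (0.000299), Bex1 by -3.47 (0.00856), Ctla4 by -3.10 (0.0149), Asic3 by -2.77 (0.000754) and Mt2 by -2.49 (0.0197). Of these 6, only Mt2 lost its day 4 call without lung replicates 1 and 2. Tff1 read 4.90, 4.76 and 4.52 in the week 2 lung and 4.80, 4.58 and 4.32 in the week 2 node, which overlapped, and Ctla4 4.85, 4.58 and 4.40 and 5.19, 4.97 and 5.10. Asic3 was still lower in the node at week 2 (-1.45, adjusted p = 0.00195), with 5.47, 5.44 and 5.54 in the lung and 3.86, 4.25 and 4.0 in the node. Itgae, Egr2, Lag3, Tigit and Cd83 were lower in the node at day 4 and not called at week 2, and their changes with time were called (adjusted p from 0.00251 for Egr2 to 0.0328 for Cd83). Without 1 of the 12 arrays the number of genes called ranged from 11, without week 2 lung replicate 2, to 52, without day 4 lung replicate 3, and it was 12 without day 4 mLN replicate 2. It was 19 without week 2 lung replicate 3 and 29 without day 4 lung replicates 1 and 2. The part of macrophage RNA in these changes was not tested.

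**Figure D5:**
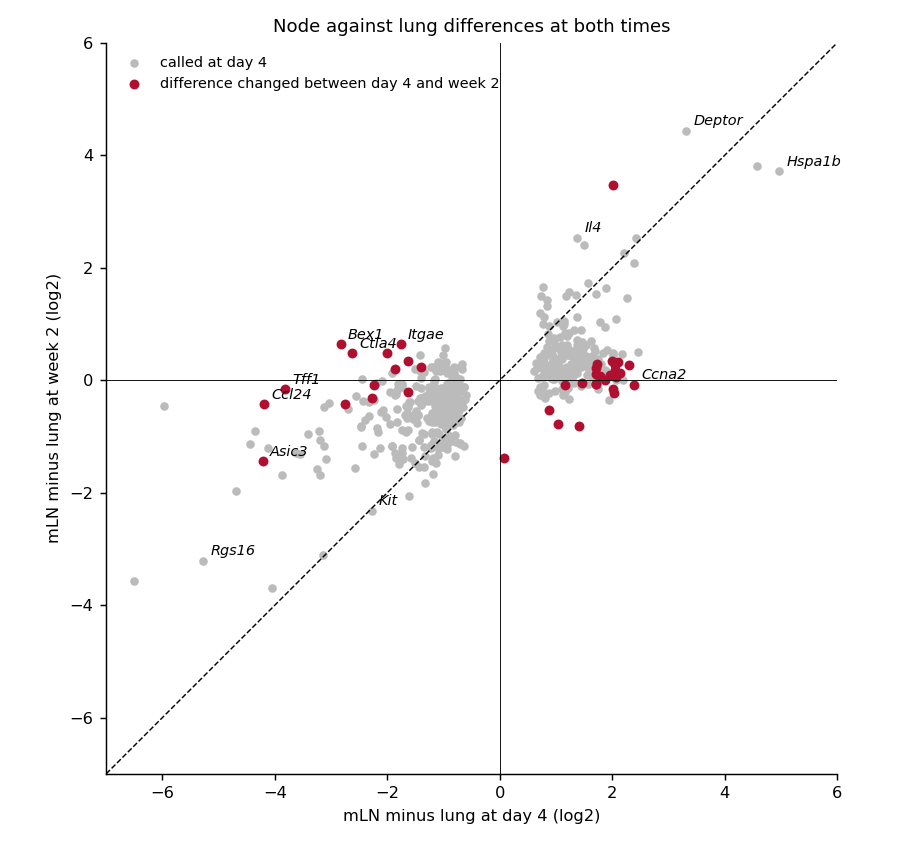
Node minus lung log2 difference at day 4 (horizontal) and at week 2 (vertical) for the 517 genes called at day 4 and 1 called only for its change, with the 40 genes whose difference changed between the times in red and a dashed line where both are equal. Kit lies on the line (-2.28 and -2.32), Hspa1b (4.97 and 3.72) and Deptor (3.32 and 4.44) are far from 0 at both times, and Ccna2 (2.39 and -0.08) and Tff1 (-3.82 and -0.16) are near 0 at week 2.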

How the data were processed

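Expression was measured on Affymetrix arrays of total RNA, and the values deposited by the authors are on a log2 scale. The submitters' processing notes name RMA and Affymetrix Expression Console for them, with no version, and the build is not given in the sources used here. Of 41345 probe sets, 23521 had 1 gene symbol in the platform annotation, 1814 had several and 16010 had none. The probe set with the highest mean stood for each of 22180 genes. All 16 arrays in 6 groups were fitted in limma 3.58.1 (R 4.3.3) with 1 mean per group (10 residual and 6.52 prior degrees of freedom). Besides the day 4 and week 2 groups, these were naive lung and 4-month lung ILC2s. Their arrays had interquartile ranges of 2.05 to 2.47 over genes, against 2.85 to 3.07 in the other groups. A fit without these arrays called 792 genes, against 517. No filter or block was used, and p-values were adjusted by Benjamini-Hochberg over all genes. The step was tested on simulated data. Detection above background was not reassessed, and the number of arrays limits the precision. Nothing in the labels says that replicates came from separate animals beyond calling them biological. The p-values set each difference against the spread between arrays within groups, pooled over all 16 arrays.

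Named genes were the 12 largest called rises and falls whose arrays did not overlap, the 10 largest each way also called without day 4 lung replicates 1 and 2, up to 5 called members of each list, the 6 largest changes between times each way, and a fixed set of ILC2 genes. Clone-named and small RNA genes, olfactory receptors and antigen receptor segments were left out. Csf1, Cxcl2 and the mitosis genes with printed promoters fall outside this rule. The members and the lists were chosen with earlier results of these data known. Same-numbered node and lung arrays at day 4 had correlations of their deviations of 0.092, 0.028 and 0.184. At week 2 the correlations were 0.028, 0.012 and 0.019. The numbers were not taken as pairs. Alternatives covered scaling, filters, the variance model, the arrays fitted, the macrophage markers and leaving out each array. Some well-known ILC2 genes were not analysed here.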

Additional observations from a re-analysis of the deposited data

Results flagged for a closer look

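The difference between node and lung changed between day 4 and week 2, by the interaction term of the limma fit, for 21 of the named genes. For 10 the node minus lung difference was higher at day 4. These were Ccna2 (2.48), the kinetochore genes Nuf2 (2.27), Cenpf (2.003) and Cenpe (1.78), the kinesins Kif23 (2.21), Kif14 (2.18), Kif18a (1.99) and Kif15 (1.93), the spindle gene Hmmr (2.02), and the chemokine receptor Ccr2 (1.40), in log2 units of day 4 minus week 2.

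For the other 11 it was lower at day 4. The secreted proteins Ccl24 (-3.77) and Tff1 (-3.65) changed most, followed by Bex1 (-3.47), and the metal-binding Mt2 differed by -2.49. Among receptors and channels the values were -3.10 for Ctla4, -2.77 for Asic3, -2.40 for Itgae, -2.05 for Lag3 and -1.96 for Tigit. Egr2 changed by -2.34 and Cd83 by -1.64. Ccl24 was 1 of the genes whose lung replicates 1 and 2 stood above replicate 3 at day 4, as the macrophage markers did, and the part of macrophage RNA in its change was not tested.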

How the results depend on the processing

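Over all genes, 517 were called, 217 higher and 300 lower in the node. Array weights gave 939 (393 and 546) and the 12 arrays of groups with 3 replicates 792 (350 higher). The macrophage marker mean as a covariate gave 156 (62 and 94), and leaving out lung replicates 1 and 2 gave 258 (96 and 162). A log2 difference of at least 1 left 197 lower. Without 1 day 4 array the counts ran from 254 to 449 in all, 115 to 187 higher and 139 to 297 lower. The change between times, called for 40 genes, was called for 25 after repeated quantile normalization and 205 with array weights. It was called for 102 with the 12 arrays, which are the only groups this change compares. With the covariate the number was 21, and without 1 array it was 11 to 52.

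Of the list counts, mitosis (65 higher) became 26 with the covariate and 35 without lung replicates 1 and 2 (47 to 63 without 1 array). Replication (15 higher) became 29 with weights, 27 with the 12 arrays, 4 with the covariate, 3 without lung replicates 1 and 2 and 8 with the size rule (5 to 13 without 1 array). Extracellular matrix (10 lower) became 2 with the covariate and 4 without those replicates (6 to 12). Early response (10 lower) became 6 with only the groups compared (5 to 12), and costimulatory and inhibitory genes (12 lower) became 6 with the covariate (8 to 11). With the covariate 3 of the 119 called named genes changed sign and lost their call, Clec7a at 0.26, Mmp12 at 0.39 and S100a9 at 0.43, and 63 others lost their call. Without lung replicates 1 and 2 that was 55, and 68 were called in each of the 6 fits without 1 day 4 array. A named gene called in neither fit counts as unchanged.

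The replicate number as a block gave 388 genes (156 higher and 232 lower) and 20 for the change between times, and 15 of 119 named genes lost their call. At day 4, 2 of 3 node arrays correlated best with the lung array of their own number, and at week 2 all 3 did. This is a hint from the data and not from the design. No called gene changed sign when arrays were centred on their medians, which moved the median of all genes by 0.0167, or were quantile normalized again. The cause of these shifts was not tested. The number of arrays, 3 a group, limits what could be called.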

Other observations

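The gene families here were chosen after their values were seen and are given as values only. All 8 measured members of the GIMAP family, GTPases of lymphocytes, had a positive node minus lung difference, with a median of 0.86. Gimap7 (2.26), Gimap4 (1.35) and Gimap6 (1.15) were called higher in the node. Leaving out lung replicates 1 and 2, the differences were 2.43, 1.43 and 1.55 for these genes, and Gimap4 lost its call. Genes induced by TGF-beta that restrain its signal leaned the other way: of 6 measured, 4 were called lower, Skil (-0.99), Ldlrad4 (-0.90), Pmepa1 (-0.87) and Smad7 (-0.86), and 3 of 6 were called without lung replicates 1 and 2.

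Of 31 measured histone genes, 5 were called higher in the node, H2bc12 (2.06), H2ac10 (1.69), H1f1 (1.64), H4c9 (1.56) and H2ac21 (1.53), and 0 without lung replicates 1 and 2 by limma, where 9 had an unadjusted p under 0.05. Histone genes share much of their sequence, so single levels are uncertain. Of 22 subunits of the V-ATPase proton pump 3 were called lower, Atp6v0d2 (-4.45), Atp6v0a1 (-0.96) and Atp6v0b (-0.92), and 0 by limma without lung replicates 1 and 2, the arrays with the higher macrophage marker means, where 4 had an unadjusted p under 0.05.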
